A study of Mus musculus with 6 samples.

Results

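The SR proteins, their kinases and their relatives form a family of 32 splicing genes, chosen by symbol among the 54532 gene rows of the expression table, and all 32 were found and passed the filter on low values. They comprise 12 SR proteins and TRA2 relatives, 6 kinases of the CLK and SRPK families, and 14 SR-related, U2AF and LUC7 factors. The values came from 6 RNA sequencing libraries of CD4 T cells of C57BL/6 mice, taken from spleen and lymph nodes. The 3 knockout (KO) libraries, KO 1, KO 4 and KO 5, carry the genotype label iCD4-PRMT5 delta/delta, and the 3 wild-type (WT) libraries, WT 1, WT 2 and WT 4, carry iCD4-PRMT5fl/fl. PRMT5 is a protein arginine methyltransferase, and WT here means floxed and not deleted. The labels spell out neither what iCD4 stands for nor the age of the animals. The titles of all 6 samples hold the word rest, whereas their treatment label states 48 h of stimulation through CD3 and CD28. The activation state is therefore uncertain, and only its labels are known to be the same in both groups. The expression table also holds 6 columns with act in their names, which match no sample and were not used. A code in the sample descriptions places KO 4, KO 5 and WT 4 in library series 24 and KO 1, WT 1 and WT 2 in series 22.

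SR proteins bind exons through RNA recognition motifs and recruit the splicing machinery through tails rich in arginine and serine. SRPK kinases phosphorylate these tails in the cytoplasm and CLK kinases phosphorylate them in the nucleus, which releases SR proteins from nuclear speckles. U2AF marks the 3′ splice site, and LUC7 proteins belong to the U1 particle at the 5′ splice site. Many genes of the family carry an exon or intron whose inclusion keeps their own mRNA from being translated or marks it for decay, and in activated T cells the family takes part in switching isoforms of surface receptors. In human leukaemia cells SRSF1 is a known substrate of PRMT5. The data used here hold 1 value per gene, so that isoforms were not separated.

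Values are robust FPM, the fragments of a gene relative to a robust estimate of library size, and the depth of each library is unknown. The summed level of 9 CD4 T cell markers lay between 2805.2 and 3605.9 FPM, and none of them was at 0. Of the markers of other cells, the 12 myeloid ones summed to 766, 801.6 and 1646.6 FPM in KO 1, KO 4 and KO 5, against 302.5, 467.6 and 1129.2 FPM in WT 1, WT 2 and WT 4, with none at 0. B cell markers summed to between 15.4 and 26.6 FPM, CD8 T and NK cell markers to between 66.5 and 92.4 FPM, stromal and endothelial ones to between 252.1 and 306.3 FPM, and erythroid and platelet ones to between 4 and 9.5 FPM with 2 of 6 at 0. Nearly all of the stromal and endothelial sum was Pecam1, also known in leukocytes (234.5 to 305.1 FPM), and the other 5 genes averaged 0.467 to 1.63 FPM each. WT 1 stood apart, with 0.3 FPM per kb over 1731 olfactory and vomeronasal receptors, where the other libraries had 0.0145 to 0.0838, and with 17.5% of gene rows at 0 against 32.1% to 52.2%. Prmt5 measured 24.4, 23.8 and 21.5 FPM in the KO libraries, against 34.9, 41.0 and 43.9 FPM in the WT libraries, which follows the labels. Its log2 difference of -0.78 (SE 0.137) was not called among the 14944 genes (limma adjusted p = 1). Mki67, a gene of dividing cells, measured 113.2, 56.4 and 116.0 FPM in KO 1, KO 4 and KO 5. In WT 1, WT 2 and WT 4 it measured 120.1, 112.7 and 104.2 FPM, so that KO 4 alone was low.

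Per kilobase of annotated exon, the family spanned from 8.43 FPM per kb for Srpk2 to 181.0 FPM per kb for Srsf5, as means of 6 libraries. The order by level began with Srsf5, Rbm39 (137 FPM per kb), Clk1 (93.5 FPM per kb), Srrm2 (85.6 FPM per kb) and Srsf2 (82.2 FPM per kb). The ranges of neighbours overlapped over much of the order. Srsf5 was separate from Rbm39, and Rbm39 from Clk1, in all 6 libraries. Srrm2, a long scaffold protein of nuclear speckles, lay within the range of Clk1. At the low end stood Clk2 (13.5 FPM per kb), Pnn (11.5 FPM per kb), Sfswap (10.6 FPM per kb) and Srpk2. Of the kinases, Clk1 was the highest and Srpk2 the lowest, and of the SR proteins Srsf4 was the lowest at 14.9 FPM per kb. Exon length was taken over all annotated transcripts, so that these levels are approximate.

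**Figure D1:**
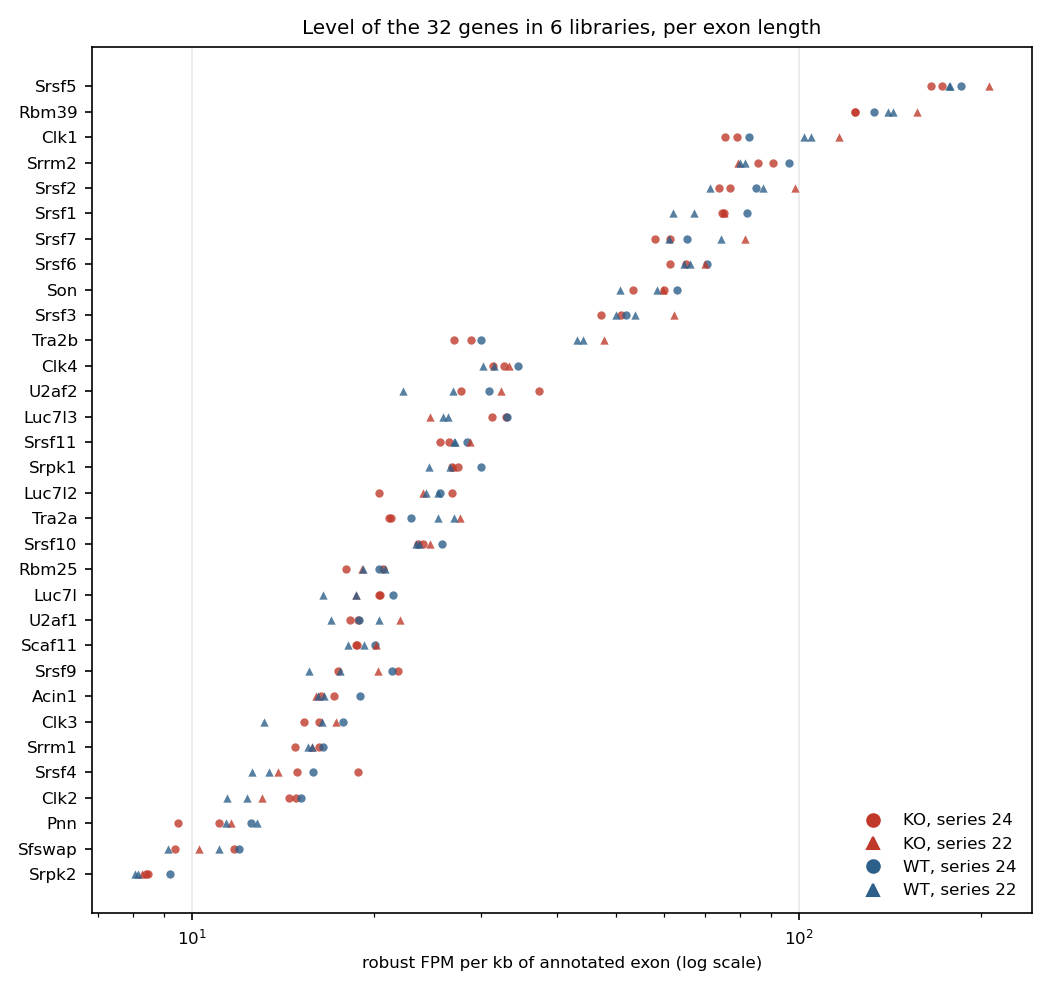
Level of each of the 32 genes in robust FPM per kb of annotated exon (log axis), with 1 point per library, KO in red and WT in blue, circles for series 24 and triangles for series 22. Srsf5 has the highest mean (181.0) and Srpk2 the lowest (8.43), and the circles of Clk1 and Tra2b lie left of their triangles.

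The first comparison addressed whether the transcripts of the family differ in amount between KO and WT. No member did so by the test: 0 of 32 were called higher and 0 lower (limma with library series as a term, adjusted over 14944 genes), beside a background of 0% of all genes tested. At an unadjusted p under 0.05 there were 0 members, against 0.248% of all genes. Beside so small a share, 0 of 32 says little about the members. The median log2 difference, KO minus WT, was 0.00448 over the members and 0.014 over all genes, and 17 members were positive and 15 negative. The KO and WT values overlapped for each of the 32, where 2.88% of all genes had groups that did not overlap, 1.09% with all KO values higher and 1.79% with all KO values lower. The differences lay between -0.17 (Pnn) and 0.23 (U2af2). The 95% intervals excluded a 2-fold difference for 32 of 32 members and a 1.5-fold difference for 31, against 85.1% and 60.1% of all genes tested. All genes reach down to a mean of 1 FPM, and no member fell below 25.8 FPM. For the 65 other splicing genes tested, described below, the shares were 100% and 93.8%, so narrow intervals were not particular to the members. With scaling to the spike-in RNAs the counts of members were 0 and 0. With a replicate block, which leaves 1 residual degree of freedom, they were 31 and 2. The median turned to -0.121 without KO 1 and to 0.106 without WT 4.

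**Figure D2:**
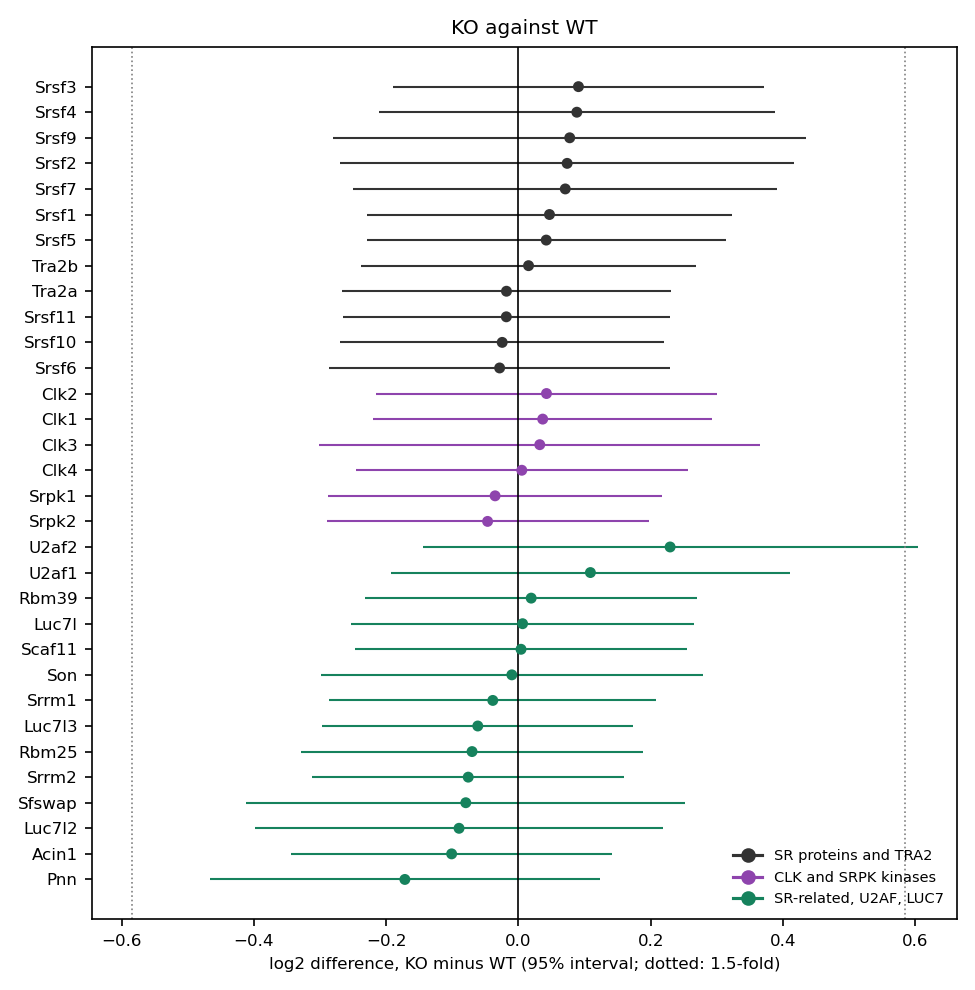
Log2 difference, KO minus WT, of each member (points) with its 95% interval (lines) from the limma fit with library series, by role group. All intervals cross 0, and the interval of U2af2 passes the dotted line at 1.5-fold.

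Among the SR proteins, which bind exonic enhancers, Srsf3 had the smallest p. It measured 492.1, 402.6 and 373.4 FPM in KO 1, KO 4 and KO 5, against 394.5, 425.1 and 410.8 FPM in WT 1, WT 2 and WT 4. The KO values lie on both sides of the WT values, and the log2 difference was 0.09 (SE 0.121, limma adjusted p = 1). Srsf4 measured 49.5, 66.9 and 53.2 FPM in the KO libraries and 44.8, 47.8 and 56.4 FPM in the WT libraries, a log2 difference of 0.09 (SE 0.129), with KO 4 alone above every WT library. It was 0.0192 without KO 4 and 0.16 without KO 5. Toward lower values, Srsf6 had a log2 difference of -0.03 (SE 0.111) and Srsf10, an SR protein that represses splicing when dephosphorylated, one of -0.02 (SE 0.106). Srsf6 measured 337.7, 294.8 and 313.9 FPM in KO, against 311.4, 318.2 and 339.5 FPM in WT. Srsf10 was nearly level, at 173.2, 165.0 and 168.5 FPM in KO and 164.2, 166.0 and 181.0 FPM in WT.

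Srsf1, the founding member of the family, measured 430.5, 430.7 and 427.0 FPM in KO 1, KO 4 and KO 5, against 354.8, 384.2 and 468.5 FPM in WT 1, WT 2 and WT 4. The KO libraries were nearly equal and lay inside the wider spread of WT, and the means were 429 ± 2.08 FPM in KO and 402 ± 59.0 FPM in WT (SD, n = 3 each). Srsf2, a nuclear SR protein, was highest in KO 1, at 291.6 FPM, with 218.7 and 227.8 FPM in KO 4 and KO 5, against 210.9, 258.0 and 251.9 FPM in WT. Srsf7, a close relative of Srsf3 with a zinc knuckle, measured 289.4, 218.1 and 206.1 FPM in KO, against 217.2, 264.1 and 232.2 FPM in WT. Both genes were highest in KO 1, the KO library of series 22. The remaining members of the group ranged over the 6 libraries from 659.5 to 821.7 FPM for Srsf5, from 217.0 to 242.9 FPM for Srsf11 and from 25.8 to 36.1 FPM for Srsf9.

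The kinases spanned the narrowest range of differences of the 3 role groups, between -0.05 and 0.04 on the log2 scale. They are also the smallest group, with 6 genes against 12 and 14, and a range widens with the number of genes. The median size of the difference was 0.036 for the kinases, 0.0445 for the SR proteins and 0.073 for the SR-related group. Clk1 had a log2 difference of 0.04 (SE 0.111), and its values, which split by library series, follow below. Clk2 measured 69.1, 78.6 and 76.6 FPM in KO, against 60.7, 65.4 and 80.2 FPM in WT (log2 difference 0.04, SE 0.111). Srpk1, the main cytoplasmic kinase of SR tails, measured 333.4, 339.4 and 332.6 FPM in KO and 304.5, 330.2 and 371.0 FPM in WT (-0.04, SE 0.109). For both genes KO lay inside the range of WT. Srpk2 measured 115.2, 117.1 and 117.7 FPM in KO, against 112.1, 113.4 and 128.0 FPM in WT (-0.05, SE 0.105). Clk4 measured 193.5, 189.9 and 182.0 FPM in KO and 175.3, 182.7 and 199.6 FPM in WT, and Clk3 ranged from 111.1 to 150.3 FPM over all libraries.

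Of the SR-related group, U2af2, the large U2AF subunit that binds the polypyrimidine tract, had the largest difference of the family in the fit to all 6 libraries. It measured 133.0, 153.7 and 114.3 FPM in KO 1, KO 4 and KO 5, against 91.7, 110.8 and 127.1 FPM in WT 1, WT 2 and WT 4 (log2 difference 0.23, SE 0.162, 95% interval -0.15 to 0.60). WT 1 was the lowest library and KO 4 the highest, and the groups overlapped. Its difference was 0.0603 without KO 1, 0.147 without WT 1, 0.345 without KO 5, 0.398 without WT 4 and 0.0102 with spike-in scaling. U2af1, the small subunit that reads the AG of the 3′ splice site, measured 57.3, 48.8 and 47.4 FPM in KO and 44.0, 52.8 and 49.1 FPM in WT (0.11, SE 0.130). Toward lower values, Pnn, the exon junction protein pinin, measured 66.9, 54.7 and 63.9 FPM in KO, against 73.9, 65.6 and 72.2 FPM in WT (-0.17, SE 0.128). KO 4 was its lowest library, and the difference was -0.108 without KO 4, -0.286 without KO 1 and -0.0572 without WT 4. Acin1 encodes acinus, which holds the place of pinin in a related complex of the exon junction, and measured 168.8, 171.8 and 180.8 FPM in KO and 174.2, 169.7 and 199.1 FPM in WT (-0.10, SE 0.105; -0.175 without KO 1 and -0.0265 without WT 4).

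The speckle scaffold Son measured 890.4, 796.1 and 894.4 FPM in KO, against 757.6, 870.1 and 938.3 FPM in WT. Its partner scaffold Srrm2 measured 1018.8, 1102.2 and 1165.7 FPM in KO and 1046.2, 1028.8 and 1236.7 FPM in WT. For both genes the groups overlapped. The other members of the group ranged over the 6 libraries from 108.2 to 120.2 FPM for Srrm1, from 187.0 to 208.2 FPM for Scaf11, from 246.4 to 324.5 FPM for Luc7l2, from 312.1 to 362.1 FPM for Rbm25 and from 73.2 to 95.9 FPM for Sfswap.

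Within the library series the differences took opposite signs. In series 24 (KO 4 and KO 5 against WT 4) 2 of 32 members were positive, U2af2 and Srsf4, with a median of -0.12, and in series 22 (KO 1 against WT 1 and WT 2) 26 were positive, with a median of 0.11. All genes tested moved likewise, with 4293 of 14944 positive in series 24 (median -0.08) and 9931 in series 22 (median 0.12). The sign differed between the series for 24 members and for 10594 of all genes. A test of that difference called 0 members and 0 genes (limma interaction term, 2 residual degrees of freedom), where 0 of 32 members and 2.47% of all genes had an unadjusted p under 0.05. The smallest p among the members was 0.0726, for Srsf2 (limma adjusted p = 0.678).

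How the family varied between the libraries was then described by series, since members differed more between the series than between the genotypes. The median size of the log2 difference was 0.137 for series 24 minus series 22, with genotype as a term, and 0.0445 for KO minus WT, where all genes tested had 0.158 and 0.0956. No member was called between the series (0 of 32), beside a background of 0.141% of all genes. At an unadjusted p under 0.05 there were 4 members, Tra2b, Clk1 and Tra2a lower in series 24 and Luc7l3 higher, against a background of 8.81%. Values of the series did not overlap for 10 members, 6 higher and 4 lower in series 24, beside 20.5% of all genes, 14.3% higher and 6.14% lower. The members' median log2 difference between the series was 0.0312, against 0.0568 over all genes.

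**Figure D3:**
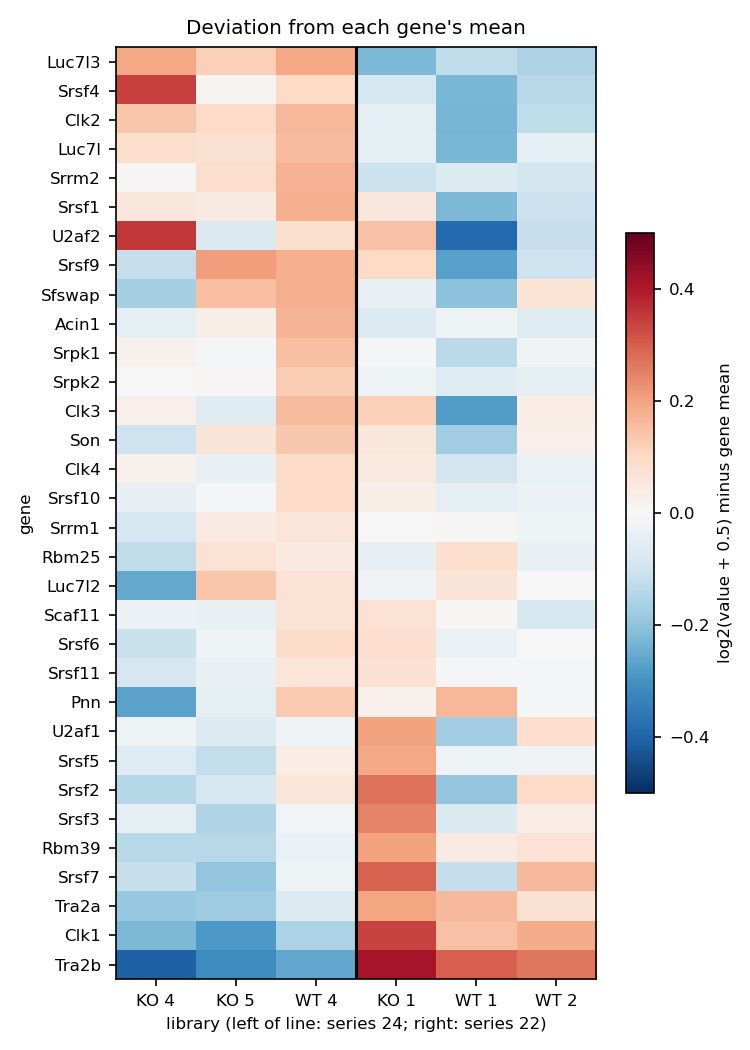
Deviation of log2(value + 0.5) from each gene's mean (colour) for 32 genes (rows, ordered by their difference between the series) in 6 libraries (columns, series 24 left of the line and series 22 right). Tra2b and Clk1 at the bottom are blue in the 3 libraries of series 24 and red in those of series 22, and Luc7l3 at the top is the reverse.

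Tra2b (GRCm38 chromosome 16, 22244549 to 22266005, minus strand) encodes an SR-like protein that activates exons with GAA-rich enhancers and controls its own mRNA through a poison exon. It measured 249.7, 266.5 and 276.5 FPM in KO 4, KO 5 and WT 4 of series 24, against 441.1, 407.8 and 398.1 FPM in KO 1, WT 1 and WT 2 of series 22. The lowest value of series 22 lay well above the highest of series 24, and the means were 264 ± 13.5 FPM in series 24 and 416 ± 22.6 FPM in series 22 (SD, n = 3 each). The log2 difference was -0.66 (SE 0.109, 95% interval -0.91 to -0.40), at -0.77 within KO and -0.54 within WT. It did not pass (limma adjusted p = 0.101, and 0.0307 to 1 over the alternatives). It passed without WT 1 (limma adjusted p = 0.0307) and with a stricter filter (0.0456).

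The paralogue Tra2a measured 147.0, 148.0 and 159.8 FPM in KO 4, KO 5 and WT 4, against 192.5, 187.8 and 176.8 FPM in KO 1, WT 1 and WT 2. All of series 24 lay below all of series 22, with a log2 difference of -0.29 (SE 0.108, limma adjusted p = 0.503). Clk1 (chromosome 1, 58410189 to 58424066, minus strand), a nuclear kinase of SR tails whose own transcript is known to retain introns, measured 643.2, 615.5 and 673.6 FPM in KO 4, KO 5 and WT 4, against 947.9, 829.9 and 853.3 FPM in KO 1, WT 1 and WT 2. Its log2 difference was -0.46 (SE 0.111, 95% interval -0.71 to -0.20, limma adjusted p = 0.303), at -0.59 within KO and -0.32 within WT. Rbm39, an SR-related partner of U2AF, was also lower in each library of series 24, at 859.5, 859.5 and 924.5 FPM in KO 4, KO 5 and WT 4, against 1087.2, 973.7 and 994.6 FPM in KO 1, WT 1 and WT 2 (-0.21, SE 0.108).

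Toward higher values in series 24, Luc7l3, a U1-associated LUC7 protein with an SR tail, measured 240.1, 227.8 and 240.3 FPM in KO 4, KO 5 and WT 4, against 179.7, 192.4 and 188.6 FPM in KO 1, WT 1 and WT 2. The series were well separate, and the log2 difference was 0.36 (SE 0.101, limma adjusted p = 0.375). Its relative Luc7l measured 153.9, 152.9 and 161.6 FPM in series 24 and 140.1, 123.7 and 140.5 FPM in series 22, also without overlap. Clk2 (log2 difference 0.26), Srsf4 (0.27), Srrm2 (0.20) and Srpk2 did not overlap either, from the values given above. Srsf1 (0.17) and Srpk1 (0.12), each the second by p toward higher values in its role group, had overlapping series. U2af1 (-0.11), the second toward lower values in its group, overlapped too. The myeloid marker sum was 801.6, 1646.6 and 1129.2 FPM in KO 4, KO 5 and WT 4, against 766, 302.5 and 467.6 FPM in KO 1, WT 1 and WT 2, and its part in these differences was not tested. In bulk samples a different mix of cells and a different amount of RNA per cell cannot be told apart. The heat shock gene Hspa1a measured 6.0, 6.6 and 5.6 FPM in series 24, against 105.9, 126.3 and 61.9 FPM in series 22, and its relation to the members was not tested.

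**Figure D4:**
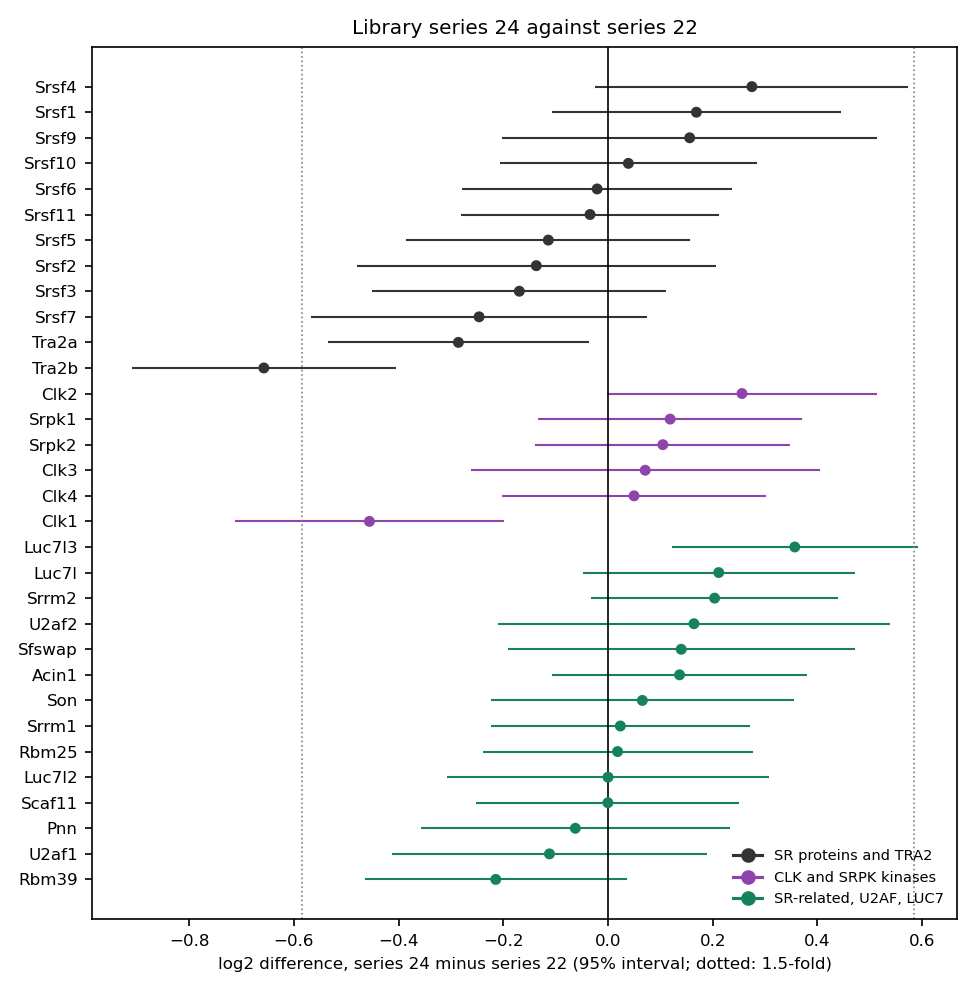
Log2 difference, series 24 minus series 22, of each member (points) with its 95% interval (lines) from the limma fit with genotype, by role group. The intervals of Tra2b, Tra2a and Clk1 lie below 0, that of Luc7l3 lies above 0, and the others cross it.

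The promoter of Tra2b is shown because this gene differed most between the series, that of its relative Tra2a for comparison, and that of Hspa1a because it marks the same split of libraries. Each is the 250 bases before the RefSeq start site on GRCm38.p6, taken from the RefSeq table and written 5′ to 3′ on the minus strand, at chr16:22266006-22266255, chr6:49264053-49264302 and chr17:34972157-34972406. Capitals mark heat shock element words (GAANNTTC or TTCNNGAA, both strands) in Tra2b and Hspa1a and the cyclic AMP response element TGACGTCA in Tra2a.
Tra2b: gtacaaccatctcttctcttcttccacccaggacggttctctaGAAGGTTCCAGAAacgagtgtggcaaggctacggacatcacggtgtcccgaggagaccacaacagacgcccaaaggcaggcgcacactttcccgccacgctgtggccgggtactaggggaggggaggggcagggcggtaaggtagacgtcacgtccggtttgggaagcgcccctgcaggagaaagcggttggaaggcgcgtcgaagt
Tra2a: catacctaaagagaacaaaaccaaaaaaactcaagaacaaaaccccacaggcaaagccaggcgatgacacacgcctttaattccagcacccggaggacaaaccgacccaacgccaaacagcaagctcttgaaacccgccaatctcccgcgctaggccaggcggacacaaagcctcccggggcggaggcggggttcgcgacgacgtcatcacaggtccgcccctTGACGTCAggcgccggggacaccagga
Hspa1a: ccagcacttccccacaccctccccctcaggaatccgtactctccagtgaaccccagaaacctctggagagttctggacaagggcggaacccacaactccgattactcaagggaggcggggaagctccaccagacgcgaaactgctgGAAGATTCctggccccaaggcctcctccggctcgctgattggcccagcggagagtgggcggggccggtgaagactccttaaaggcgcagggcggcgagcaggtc

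In Tra2b the words GAAGGTTC and TTCCAGAA overlap, 207 and 202 bases before the start site, and form 3 alternating units 2 bases apart. Windows of 300 bases, with 50 after the start site, were searched for 29 members, while Clk1, Luc7l and U2af2 had none in the table. The heat shock element word stood in 5 of 41 windows of the members (Acin1, Luc7l2, Srsf9 and Tra2b) and in 15.1% of 32851 windows of all genes. Such a row of 3 units stood in 1 of the 41, that of Tra2b, and in 0.603% of all windows, a search chosen after the sequence had been seen. The window of Hspa1a held the word but no such row, and Tra2a held neither. Of the other members with the word, Acin1 and Srsf9 had positive log2 differences between the series (0.14 and 0.16). That of Luc7l2 was near 0 (-1.4e-05). The ETS word CCGGAAG stood in 12 of 41 windows and in 8.86% of all. Some members have more than 1 window, and these 12 belonged to 8 of the 29 members. CCAAT stood in 14 windows (13 members) and 37.4% of all, and the NRF1 word GCATGCGC in 4 and 2.71%. TGACGTCA stood in 2 (Clk4 and Tra2a) and 1.79%, and the E-box CACGTG in 1 (Clk2) and 7.15%. These matches describe letters in a window, and their relation to the differences was not tested.

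Close relatives within the family did not always vary together. Clk4 is the nearest relative of Clk1, and it measured 189.9, 182.0 and 199.6 FPM in KO 4, KO 5 and WT 4, against 193.5, 175.3 and 182.7 FPM in KO 1, WT 1 and WT 2, with series that overlapped. The ratio of Clk1 to Clk4 within a library, which no scaling of libraries alters, was 3.387, 3.382 and 3.375 in KO 4, KO 5 and WT 4, against 4.90, 4.73 and 4.67 in KO 1, WT 1 and WT 2. The mean ratio was 3.38 ± 0.00617 in series 24 and 4.77 ± 0.118 in series 22 (SD, n = 3 each), and the ranges were far apart. Between the genotypes the same ratio overlapped, at 3.89 ± 0.874 in KO and 4.26 ± 0.767 in WT (SD, n = 3 each).

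For Tra2b over Tra2a the ratio was 1.70, 1.80 and 1.73 in KO 4, KO 5 and WT 4, against 2.29, 2.17 and 2.25 in KO 1, WT 1 and WT 2, again without overlap. Srsf4 over Srsf6 was the third of 9 pairs of relatives whose series were separate, at 0.188 ± 0.0342 in series 24 and 0.147 ± 0.00319 in series 22 (SD, n = 3 each). For each of the 3 the two-sided exact permutation test over libraries gave p = 0.1, the smallest it can give for 3 against 3, and 0.6 after Benjamini-Hochberg adjustment over 18 tests. The other 6 pairs overlapped between the series, and all 9 overlapped between KO and WT. The share of separate ratios over all pairs of genes was not computed, and 20.5% of single genes were separate between the series. As the ratios were added after the values had been seen, 3 of 9 is not a result about relatives. Srpk1 over Srpk2 was the steadiest, at 2.87 ± 0.0407 in KO and 2.84 ± 0.109 in WT (SD, n = 3 each). These ratios are not corrected for length and serve to compare libraries, and the handling of reads that match both relatives is not given in the sources.

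**Figure D5:**
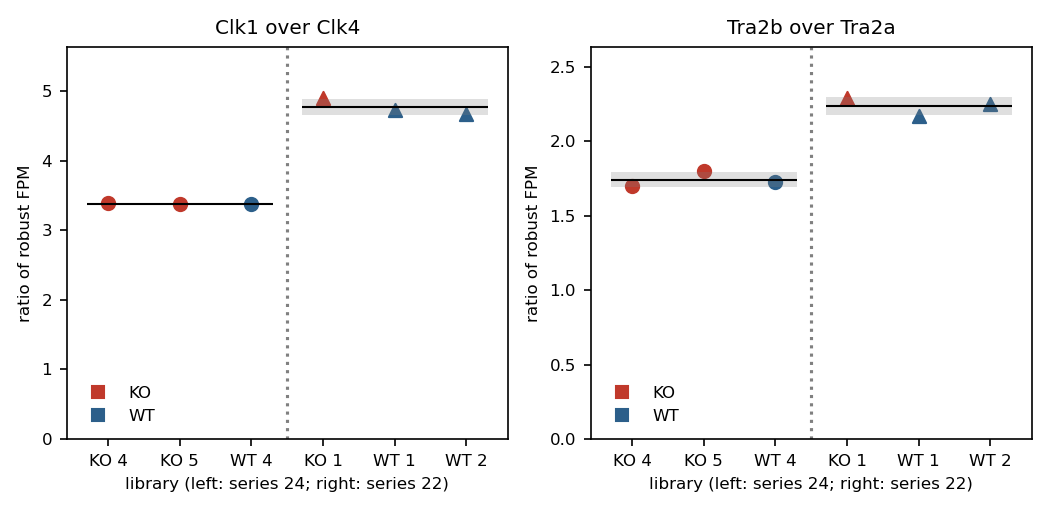
Ratio of robust FPM of Clk1 to Clk4 (left) and of Tra2b to Tra2a (right) in each library, KO in red and WT in blue, with circles for series 24 and triangles for series 22. Lines and bands give the mean and SD of each series, and the ratio of Clk1 to Clk4 averages 3.38 in series 24 and 4.77 in series 22.

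Some members share exon bases with a gene on the other strand, and the sources used here do not say if reads were counted by strand. Srpk2 shared 972 exon bases with Kmt2e, which averaged 289 FPM over the libraries where Srpk2 averaged 117 FPM. Luc7l2 shared 2284 with Gm26699, which averaged 0.35 FPM, and Srsf4 shared 1532 with Gm12992, which averaged 1.95 FPM. Clk3 shared 1284 with Edc3, Srsf2 shared 460 with Mettl23 and 288 with Mfsd11, Acin1 shared 463 with 1700123O20Rik, and Son shared 103 with Donson, which averaged 69.3 FPM. Their division of reads is therefore uncertain. No such overlap with another gene was annotated for Tra2b or Clk1.

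Other genes of the splicing pathway, a list of 68 with 67 rows and 65 tested, had 0 genes called between KO and WT, beside the 0% of all genes given above, and a median log2 difference of -0.02. The smallest p toward higher values belonged to Sf3b5 (0.24, SE 0.185) and Sf3a2 (0.17, SE 0.140), subunits of the U2 particle, and Rbm6 (-0.09, SE 0.102) was among those of smallest p toward lower values. Between the series 0 of 65 were called, beside 0.141% of all genes, and 9 had an unadjusted p under 0.05, 6 higher and 3 lower in series 24, beside 8.81% of all genes. Ccnl1, a cyclin that regulates splicing with CDK11, measured 291.7, 318.1 and 336.1 FPM in KO 4, KO 5 and WT 4, against 532.0, 420.5 and 435.8 FPM in KO 1, WT 1 and WT 2 (log2 difference -0.58, SE 0.131, limma adjusted p = 0.260). It was lower in each library of series 24, as Clk1 and Tra2b were. Its paralogue Ccnl2, named after its values were seen, was higher in each, at 333.3, 322.7 and 350.7 FPM in series 24 against 296.0, 265.3 and 287.1 FPM in series 22 (0.25, SE 0.108). The others of smallest p were Zrsr1, a relative of U2AF1 (-0.58, SE 0.158), Snrnp70, the U1 protein with an SR-like tail (0.38, SE 0.104), and Arglu1, an arginine-rich splicing modulator (0.36, SE 0.104).

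The spread of members over the 6 libraries had a median SD of 0.136 on the log2 scale, against 0.205 over all genes tested. The 65 other splicing genes tested had 0.123, so a small spread was not particular to the members. No member fell below 25.8 FPM in any library, whereas all genes tested reach down to a mean of 1 FPM. Tra2b (SD 0.364), Clk1 (0.255) and U2af2 (0.254) varied most, and Srrm1 (0.0528) and Srsf10 (0.0537) least. The ratio of the highest to the lowest library ran from 1.10 for Srsf10 to 1.77 for Tra2b. WT 1 held the lowest value for 15 of 32 members, where it did so for 44.9% of all genes, and WT 4 held the highest for 15 of 32, where it did so for 26.7%. KO 4 held the lowest value for 9 of 32 members and for 19.9% of all genes. Together the members took between 0.984% (WT 1) and 1.13% (KO 1) of the summed gene rows. The sum of WT 1 includes 1 row, Gm26870, at 8.43e+04 FPM. In the other libraries the highest row was Rn7sk, at 1.98e+04 to 2.76e+04 FPM. The low share of WT 1 is therefore not a measure of the members alone.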

How the data were processed

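Per the labels' protocols, total RNA of whole CD4 T cells was depleted of ribosomal RNA and made into strand-specific TruSeq libraries. The authors deposited 1 table of robust FPM, which is handled as RPM rather than as read counts and is rounded to 1 decimal. Per the submitters' processing notes STAR, featureCounts, DESeq2 and DESeq were used on GRCm38.p3, with no role or version named. The 92 ERCC spike-in rows (0.752% to 1.59% of a column's sum) were left out. Also unused were 6 columns that match no sample by name and hold act in their names. Rounding keeps whole reads from being recovered, so depth is unknown and no counting interval is given.

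Genes with a mean of at least 1 were kept (14944). log2(value + 0.5), which understates changes of low genes, entered limma 3.58.1 (R 4.3.3) with genotype and library series as terms and the trend option, and tests were two-sided. Genes were called at a Benjamini-Hochberg adjusted p below 0.05. The fit was run on simulated data with independent noise in each gene and library, which does not cover shifts shared by many genes of a library. The series' design text names biological replicates, so p-values measure the spread between these samples. Ratios were tested with scipy 1.17.1, and figures used matplotlib 3.10.9. The ratios and the search for 3 heat shock units were added after the values had been seen. Positions are from GENCODE M21 (GRCm38) and promoters from RefSeq (GRCm38.p6). Protein sequences were not used here.

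The members and lists were chosen with earlier results of these data known. All members may be named. Values in every library are given for 13 fixed members, for the 2 of smallest p in each direction and role group of both contrasts, and for those whose groups do not overlap. Other settings were pseudocounts of 0.1 and 1, no filter, a filter at a mean of 5, no series term, a replicate block, scaling by ERCC or total sum, and each library left out in turn. A result that the naming rule selects among the other splicing genes is not reported here.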

Additional observations from a re-analysis of the deposited data

How the results depend on the processing

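The count of members called between KO and WT was 0 in each of the 14 alternatives, and so was the count for the interaction in those where it could be fitted. It could not be fitted without KO 1 or without WT 4, each of which leaves an arm empty. With scaling to the ERCC spike-ins the median over all genes, KO minus WT, shifted to -0.199 (0.014 as deposited) and that of the members to -0.215, and Srsf3 (-0.129), Srsf4 (-0.13), Clk1 (-0.183), Clk2 (-0.176) and U2af1 (-0.109) turned with it. Relative to that shift they stayed above the median of all genes. The same scaling gave 3 genes higher and 7 lower in series 24 and 8 for the interaction. Total-sum scaling turned Srsf6 to 0.00338 and Srsf10 to 0.00722, and leaving out the series term turned Clk1 to -0.115 and Srpk1 to 0.00426.

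The replicate block gave 1 gene higher and 4 lower in KO, with 0 members called, and turned Srpk1 to 0.00118. It leaves 1 residual degree of freedom, and only replicate numbers 1 and 4 occur in both genotypes. Its KO minus WT therefore rests on those numbers, and its counts are not comparable with those of the main fit. Whether replicate numbers 1 and 4 pair the samples was not settled. The deviations from the group means correlated at -0.16 and -0.409 for same-numbered libraries and at -0.358 to 0.485 for the others. Of the other pairs within a series, KO 1 with WT 2 gave 0.445 and KO 5 with WT 4 gave 0.438. The same-numbered libraries were thus not the more alike ones. These correlations cannot decide the pairing, since the deviations of 3 libraries from their own mean depend on each other. Between the series, a pseudocount of 0.1 gave 2 genes higher. A filter at 5 gave 6 higher and 48 lower, with 1 member called, Tra2b. The filter's part in this beyond the smaller number of genes tested was not tested.

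Leaving out 1 library moved the members' median, KO minus WT, from -0.121 (without KO 1) to 0.106 (without WT 4). The log2 differences ranged from -0.0833 to 0.265 for Srsf3, -0.158 to 0.101 for Srsf6, -0.118 to 0.0689 for Srsf10, -0.0983 to 0.172 for Clk1, -0.0474 to 0.132 for Clk2, -0.143 to 0.0722 for Srpk1, -0.124 to 0.0309 for Srpk2 and -0.0295 to 0.247 for U2af1. Without a change of sign they ranged from 0.0603 to 0.398 for U2af2, -0.286 to -0.0572 for Pnn, -0.175 to -0.0265 for Acin1 and 0.0192 to 0.16 for Srsf4. Between the series they ranged from -0.25 to 0.0264 for U2af1 and from -0.00555 to 0.343 for Srsf1, and the median of the members from -0.0561 to 0.121. Genes called higher in series 24 ranged from 0 to 38 and lower from 0 to 92, with 0 to 1 members called. Without KO 1 or WT 4 no gene was called, without WT 1 there were 18 and 92, without KO 4 there were 38 and 29, without KO 5 there were 0 and 16 and without WT 2 there were 1 and 6. The causes were not tested. Tra2b, Tra2a, Clk1, Clk2, Srsf4, Srpk1, Rbm39, Luc7l3 and Srrm2 kept their direction between the series in all 12 alternatives. The ratios, the level per kb and the other splicing genes were given in 1 setting.

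Values rounded to 0.1 FPM and an unknown depth limit low genes more than the members, whose lowest value was 25.8 FPM. A design of 3 against 3 libraries with the library series unequal between the genotypes limits the precision of KO minus WT. Isoforms, protein amounts and phosphorylation were not measured here.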
